A study of Homo sapiens with 46 samples.

Results

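A set of 8 nuclear genes (of the 58735 genes listed, all among the 20272 tested) were followed through the series: PHYH, GPR180, RDH10, JMJD1C, ASAP1, KIAA1522, SPTBN1 and SMPDL3B. They were selected on their measured log2 difference between ND5 silencing and the other treatments, in which all were lower, and most hold a run of 10 or 11 bases complementary to the ND5 morpholino. That difference is therefore given as a description without a test. By an adjusted p under 0.05 in edgeR, 60 genes (0.296% of those tested) were lower after ND5 silencing than after the mean of the other 10 treatments. The count was 104 with the replicate number as a block, and between 14 (without ND5 replicate 4) and 37 (without ND5 replicate 3) with 1 ND5 library left out. Of the 60, 58 were nuclear, and the 8 genes are the 7 with a run of at least 10 bases together with GPR180, whose longest run is 9. A longest run of 9 was also held by 8 other nuclear genes called lower, which are not in the set.

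The libraries were poly(A) RNA-seq of wild-type HEK293T cells, a human embryonic kidney line, taken 48 hours after addition of 2 µM chimera with the delivery reagent EndoPorter. A chimera couples a morpholino with pCox4, a mitochondrial presequence from yeast, and each of 11 treatments used a morpholino against 1 mRNA of mtDNA. The control received pCox4 in the reaction buffer, with no morpholino, so it does not account for the presence of an oligomer as such. The targets were subunits of ATP synthase (ATP6, ATP8), of cytochrome c oxidase (COX1, COX2, COX3), cytochrome b (CYTB) and subunits of complex I (ND5, ND4L, ND3, ND2 and ND1). With the control this made 12 conditions and 46 libraries, 4 for each condition except COX2 and ND2, which had 3. Replicates 1 and 2 were made as batch 1 and replicates 3 and 4 as batch 2, on different days with different reagents. All come from 1 cell line, and 1 morpholino represents each target.

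Total counts ranged from 18876395 to 100698084 per library, and from 21383044 to 27301986 in the 4 ND5 libraries. The deepest library, COX3 replicate 4, was followed by one of 28121898. Of 8 genes listed as typical of HEK293 cells, 7 had a median of at least 1 CPM (counts relative to the TMM-scaled library total); NEFM, the eighth, had 0.971. Of 10 markers of other cell types, 8 had a median of at most 0.293 CPM, while COL1A1 stood at 25 and ACTN2 at 12.4. The targeted mRNA MT-ND5 was at 2055, 2327, 2533 and 1994 CPM in ND5 replicates 1 to 4 and at 2301, 2566, 2940 and 2336 CPM in the control. It differed by -0.24 (log2, standard error 0.063) from the mean of the other treatments (edgeR, adjusted p = 0.0489) and by -0.19 (standard error 0.083) from the control (adjusted p = 0.458). The lowest mean of MT-ND5 was not that of ND5 silencing (2227 CPM) but that of ND2 silencing (2165 CPM), with 2536 CPM in the control. The highest were 3113 CPM after COX2, 3064 after COX1 and 2991 after COX3 silencing, which raise the mean of the other treatments.

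Morpholinos are antisense oligomers with an uncharged backbone that pair with RNA by its bases. Bound near a start codon they hinder the ribosome, and bound near an exon boundary of a nuclear transcript they can hinder splicing. They do not direct the cleavage of RNA by RNase H. In these chimeras the presequence serves to bring the oligomer to the mitochondrial matrix, where nuclear transcripts are not found.

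The ND5 chimera was directed at bases 3 to 25 of the MT-ND5 transcript (chrM:12339-12361, plus strand, GRCh38), which begin just inside the start codon. The 23 bases are shown 5′ to 3′ as the morpholino and as its target site, with capitals on the 9 positions that most of the 8 mRNAs share. The mRNA segments follow, aligned to the target site, with capitals on each gene's longest unbroken run. All were read from GENCODE 29 transcripts, in spliced form.
ND5 morpholino: tggttatagtagTGTGCATGGtt
MT-ND5 target site: aaCCATGCACActactataacca
PHYH: ggCCATGCACACaatgttgataa
GPR180, coding: acCCATGCACAtgattttaaagg
GPR180, 3′ untranslated: ccCCATGCACAtataaacatata
JMJD1C: tgCCATGCACACTcttagggaaa
KIAA1522: AACCATGCACAtactatagtcca
SPTBN1: gagaATGCACACTACatttgagc
SMPDL3B: ctCCATGCACACagtgctggacc

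The runs lay at the 5′ end of the target site, against the 3′ end of the morpholino. Counted from base 1 of the target site, they covered bases 3 to 12 in PHYH and SMPDL3B, 3 to 11 at both sites of GPR180, 3 to 13 in RDH10 and JMJD1C, 2 to 11 in ASAP1, 1 to 11 in KIAA1522 and 5 to 15 in SPTBN1. The 9 bases CCATGCACA were present in 7 of the 8 genes, all but SPTBN1, and in 491 genes (2.42%) of the 20263 with a transcript. The 7 bases ATGCACA were common to all 8 and were found in 25.2% of genes. These letters follow in part from the choice of the genes. Outside the run the pairing was partial: 12 to 15 of the 23 positions matched in the aligned segments, 15 in RDH10, ASAP1 and the coding site of GPR180, and 12 in SMPDL3B and the second site of GPR180.

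Most runs lay in coding sequence. The PHYH run (chr10:13291860-13291869, minus strand) was in coding exon 5 of 9 and ended 29 bases before the exon's end. In RDH10 (chromosome 8, exon 2 of 6) it ended 5 bases before the exon's end, and in ASAP1 (chromosome 8, exon 9 of 30) 6 bases before it. In JMJD1C (chr10:63193441-63193451, minus strand) it began 21 bases after the start of exon 15 of 26.

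The remaining sites were farther from exon boundaries. The coding site of GPR180 (chr13:94619246-94619254, plus strand) was in exon 4 of 9, 76 bases from the exon's end, and its second site (chr13:94632360-94632368) in the 3′ untranslated part of exon 9. The SPTBN1 run (chr2:54649945-54649955, plus strand) was in exon 26 of 36, 34 bases before its end. Both genes on chromosome 1 had it in their last exon, SMPDL3B (chr1:27958591-27958600, plus strand) in coding sequence and KIAA1522 (chr1:32773250-32773260, plus strand) in the 3′ untranslated region. Among annotated protein-coding transcripts, all 5 of PHYH held the run, but 3 of 6 of ASAP1 and 2 of 4 of SMPDL3B.

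PHYH, the peroxisomal enzyme that begins the alpha-oxidation of phytanic acid, was the gene that differed most. It was at 11.7, 10.1, 14.2 and 16.4 CPM in ND5 replicates 1 to 4 and at 24.04, 24.86, 22.07 and 23.63 CPM in the control. In the 38 libraries of the other treatments it ranged from 21.1 to 30.3 CPM (median 25.5). The 4 ND5 libraries were thus below all 42 others, and both batch 1 libraries were below both of batch 2. ND5 silencing left PHYH at 51.3% of the other treatments, a log2 difference of -0.96 (standard error 0.072), and the log2 difference from the control was -0.85 (standard error 0.092).

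Across the other conditions PHYH moved within a narrow band. Means were 23.65 ± 1.17 CPM in the control (SD, n = 4), 24.1 ± 1.22 after ATP6, 25.6 ± 0.953 after ATP8 and 26.3 ± 2.73 after COX1 silencing (SD, n = 4 each). They were 25 ± 1.37 after COX2 and 26.0 ± 0.905 after ND2 silencing (SD, n = 3 each). The last 5 were 24.8 ± 1.79 after COX3, 26.7 ± 1.24 after CYTB, 26.5 ± 2.85 after ND1, 24.1 ± 2.39 after ND3 and 26.8 ± 2.07 after ND4L silencing (SD, n = 4 each). Ranked by level, neighbouring means among these 11 conditions differed by less than the SD of their libraries. The mean after ND5 silencing, 13.1 ± 2.785 CPM (SD, n = 4), stood alone below them.

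GPR180, a multipass membrane protein linked to TGF-beta signalling, came second. It was at 19.2, 18.1, 22.2 and 23.3 CPM in ND5 replicates 1 to 4, against 32.4, 34.3, 31.3 and 32.9 CPM in the control and 27.5 to 38.6 CPM (median 32.1) in the other treatments. No library outside ND5 overlapped with the 4. The log2 difference was -0.63 (standard error 0.065) from the other treatments and -0.65 (standard error 0.083) from the control. GPR180 has the shortest run of the 8 genes, and the run occurs at 2 sites. Whether the number of sites bears on the level was not tested.

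JMJD1C, of the JmjC family of histone demethylases, was at 72.6, 64.8, 75.2 and 78.1 CPM in ND5 replicates 1 to 4. The control libraries held 104.9, 112.9, 112.9 and 104.1 CPM, and the other treatments 88.1 to 121.3 CPM (median 106.5). Again the ND5 libraries lay below all others. The log2 difference was -0.53 (standard error 0.057) from the other treatments and -0.58 (standard error 0.074) from the control.

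RDH10, the enzyme that oxidises retinol to retinal on the way to retinoic acid, was lower in batch 2 than in batch 1 in every condition. In ND5 replicates 1 to 4 it was at 34.6, 35.1, 30.9 and 30.8 CPM, and in the control at 46.71, 50.73, 37.96 and 42.9 CPM. The other treatments ranged from 35.7 to 53.9 CPM (median 43.3), so the lowest of them was just above the highest ND5 library. Relative to the other treatments of the same batch, the 4 ND5 libraries stood at 70.9% to 77.4%. The log2 difference was -0.43 (standard error 0.045) from the other treatments and -0.44 (standard error 0.059) from the control.

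ASAP1, a GTPase-activating protein for ARF GTPases that acts on the actin cytoskeleton, was at 64.0, 58.8, 64.4 and 64.5 CPM in ND5 replicates 1 to 4. It was at 77.6, 81.7, 88.7 and 86.2 CPM in the control and at 69.7 to 89.3 CPM (median 80.9) in the other treatments. The groups did not overlap. The log2 difference was -0.36 (standard error 0.044) from the other treatments and -0.41 (standard error 0.058) from the control.

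The remaining 3 genes differed less, and their ND5 libraries overlapped with others. SMPDL3B, a membrane-anchored relative of acid sphingomyelinase, was at 16.9, 16.5, 18.1 and 16.5 CPM in ND5 replicates 1 to 4 against 21.1, 19.3, 19.1 and 19.2 CPM in the control and 16.3 to 25.4 CPM (median 20.7) elsewhere. A single library of the 42 was at or below its highest ND5 value. The log2 difference was -0.29 (standard error 0.059) from the other treatments and -0.21 (standard error 0.078) from the control.

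KIAA1522 was at 67.9, 73.4, 61.2 and 62.8 CPM in ND5 replicates 1 to 4, at 78.3, 78.0, 75.2 and 77.1 CPM in the control and at 64.0 to 86.8 CPM (median 77.5) in the other treatments. Here 8 of the 42 libraries overlapped with the ND5 range, and the log2 differences were -0.23 (standard error 0.048) and -0.22 (standard error 0.063), from the other treatments and from the control. SPTBN1, the beta chain of the spectrin skeleton under the plasma membrane of non-erythroid cells, showed the smallest difference. It was at 353.3, 384.0, 397.4 and 429.8 CPM in ND5 replicates 1 to 4, at 410.8, 415.6, 431.8 and 433.1 CPM in the control and at 394.4 to 479.3 CPM (median 434.3) elsewhere, and 17 of the 42 libraries fell within the ND5 range. Its log2 differences were -0.15 (standard error 0.038) and -0.11 (standard error 0.051), in the same order.

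**Figure D1:**
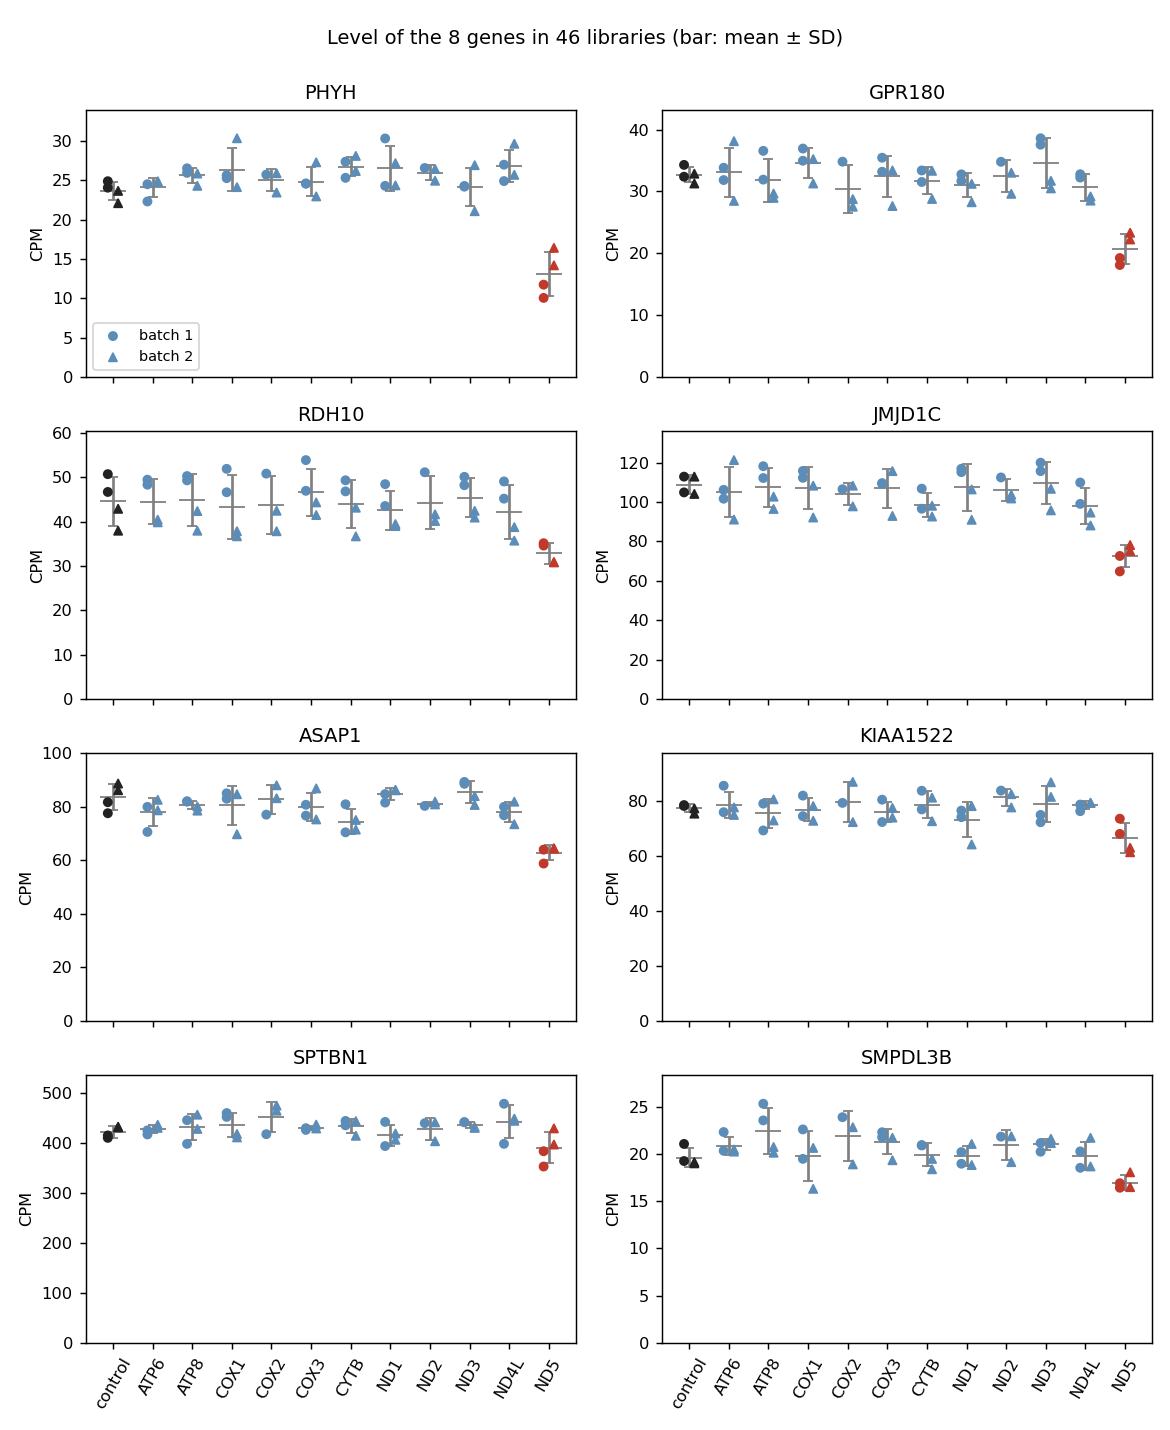
Level of the 8 genes in all 46 libraries by condition, in CPM on axes that start at 0. Circles are batch 1 and triangles batch 2, grey bars are the mean ± SD of a condition; the red ND5 points lie below all 42 others for PHYH, GPR180, RDH10, JMJD1C and ASAP1 and overlap with them for KIAA1522, SPTBN1 and SMPDL3B.

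Over all genes tested, 6 (0.0296%) had all 4 ND5 libraries below the 42 others, namely the 5 genes just listed and PRDX3, a mitochondrial peroxiredoxin whose longest run is 8 bases. This measure comes from the same contrast that chose the genes. Against the control, 17 genes (0.0839%) were lower after ND5 silencing by the adjusted p in edgeR, and nothing is read from the place of the 8 among them, since the ND5 libraries are the same. The values rest on 213 to 10562 counts per gene in the ND5 libraries. In poly(A) RNA of whole cultures, lower synthesis, altered processing and faster decay of an mRNA cannot be told apart.

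The other 10 treatments entered the choice of the genes through their mean and not one by one, so differences among these treatments could be tested. Across them, 0 of the 8 genes varied by the F test in edgeR (adjusted p from 0.62 for ASAP1 to 0.92 for SPTBN1), while 38 genes (0.187%) passed among all tested (97 with the replicate block, 60 without COX3 replicate 4 and 20 without replicate 1 of every condition). At an unadjusted p under 0.05 there was 1 of the 8, ASAP1, against 7.89% of all genes, and DESeq2 also called 0 of the 8. With a share of 0.187% over all genes, 0 of 8 says little about these genes. Condition means of the 10 treatments spanned 30.4 to 34.6 CPM for GPR180, 97.9 to 109.5 CPM for JMJD1C, 42.2 to 46.7 CPM for RDH10 and 74.5 to 85.6 CPM for ASAP1. For KIAA1522 they spanned 73.1 to 81.1 CPM, for SPTBN1 416 to 453 CPM and for SMPDL3B 19.8 to 22.5 CPM. In each of the 8 genes the lowest mean of all 12 conditions was that of ND5. This follows in large part from how the genes were chosen, and nothing is read from it.

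Each of the 10 treatments was also set against the control, which gave 80 tests of the 8 genes. None passed in edgeR or in DESeq2 (0 of 80 in each), and the lowest adjusted p was 0.164 in edgeR. Among all gene and treatment pairs 0.172% passed, so 0 of 80 is near that share and says little about the 8 genes. At an unadjusted p under 0.05 there were 6 of the 80, against 9.84% of all pairs. They comprised PHYH after CYTB (0.17) and ND4L silencing (0.18), SMPDL3B after ATP8 (0.19) and COX2 silencing (0.17), JMJD1C after ND4L silencing (-0.15) and ASAP1 after CYTB silencing (-0.17), as log2 differences. These comparisons and that of ND5 with the control share the same 4 control libraries.

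**Figure D2:**
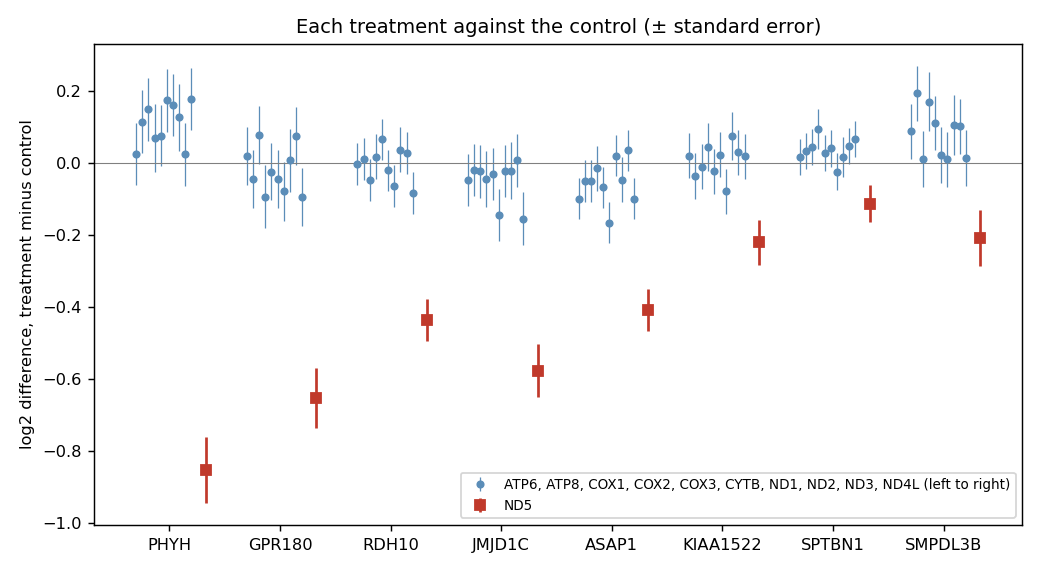
Log2 difference from the control for each treatment and gene, with the standard error of the edgeR fit. Blue circles are the other 10 treatments in the order of the key and lie between -0.17 and 0.19; the red ND5 squares lie between -0.85 for PHYH and -0.11 for SPTBN1.

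Some of the 8 mRNAs also hold runs complementary to other morpholinos of the series, and their levels could be read in the matching treatment. Searches were made for the 7 morpholinos whose letters matched the reference. JMJD1C holds a run of 11 bases to the COX3 morpholino, as long as its run to that of ND5. After COX3 silencing it was at 106.9 ± 9.77 CPM (SD, n = 4), a log2 difference from the control of -0.03 (standard error 0.072, adjusted p = 0.936, edgeR). SPTBN1 holds 11 bases complementary to the COX2 morpholino and ASAP1 10 bases. After COX2 silencing SPTBN1 was at 453 ± 30.6 CPM (SD, n = 3), a log2 difference of 0.10 (standard error 0.055, adjusted p = 0.453), and ASAP1 was at 82.8 ± 5.49 CPM (SD, n = 3), a log2 difference of -0.01 (standard error 0.062, adjusted p = 0.951). None of these passed the test, in either direction. With the ATP8, COX1, CYTB and ND1 morpholinos the longest run in any of the 8 genes was 9 bases.

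The fitted differences after ND5 silencing varied between the batches, though no gene passed the test of this given below. For PHYH the log2 difference from the other treatments was -1.22 (standard error 0.094) in batch 1 and -0.74 (standard error 0.088) in batch 2. It was -0.86 and -0.43 for GPR180 (standard errors 0.083 and 0.079), and -0.68 and -0.39 for JMJD1C (standard errors 0.077 and 0.075). In 7 of the 8 genes the difference was larger in batch 1. The 8 genes share the same ND5 libraries, so they are not separate observations of this. KIAA1522 went the other way, with -0.14 (standard error 0.065) in batch 1 and -0.32 (standard error 0.066) in batch 2.

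This difference between batches is not the contrast that chose the genes, but it draws on the same ND5 libraries. It was tested with an added term in edgeR, and nothing is read from the place of the 8 genes among all. None of the 8 genes passed (0 of 8), nor did any of the genes tested (0%), of which 1631 (8.05%) had an unadjusted p under 0.05. Unadjusted, 4 of the 8 genes were under 0.05: PHYH (batch 2 minus batch 1, 0.48, standard error 0.13, adjusted p = 0.334), GPR180 (0.43, standard error 0.11, adjusted p = 0.334), JMJD1C (0.28, standard error 0.10, adjusted p = 0.527) and SPTBN1 (0.16, standard error 0.073, adjusted p = 0.597). RDH10 and ASAP1 had -0.49 and -0.39 in batch 1 and -0.37 and -0.33 in batch 2, with standard errors of 0.062 to 0.063.

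**Figure D3:**
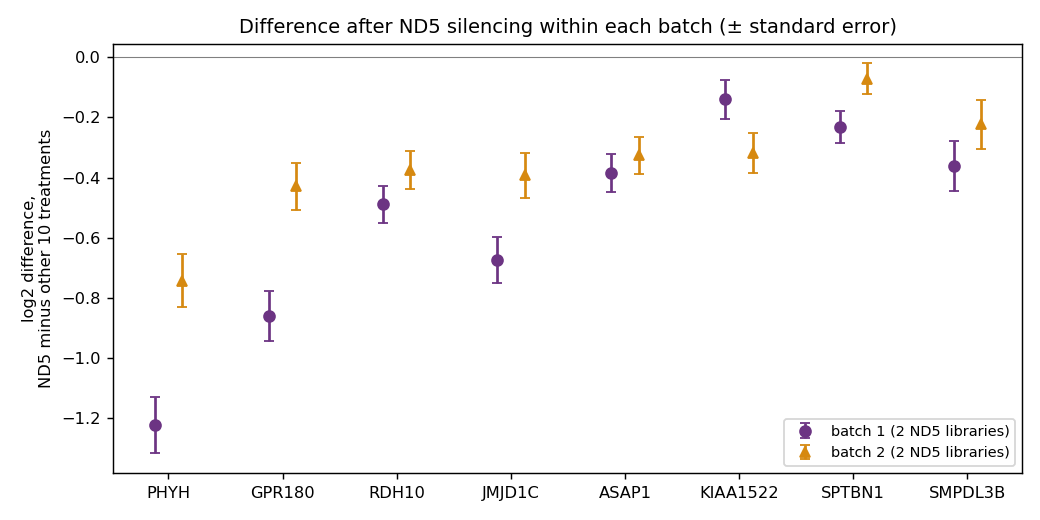
Log2 difference between ND5 silencing and the mean of the other 10 treatments within each batch, with standard errors of the edgeR fit. Purple circles are batch 1 and orange triangles batch 2, each with 2 ND5 libraries; all values are below 0, and the difference is larger in batch 1 for all genes but KIAA1522.

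The length of the complementary run was next set against the difference over the whole table. Of the 20263 genes tested that have a transcript, 682 (3.37%) hold a run of at least 10 bases to the ND5 morpholino, MT-ND5 included. Their median log2 difference from the other treatments was 0.02, against 0.00 over all genes, and 41.1% of them were lower, against 50% of all genes. With at least 11 bases (143 genes) the median was 0.02 and 37.8% were lower, and with at least 12 bases (28 genes) the median was 0.00 and 50% were lower. Without the 8 genes, 40.4% of 675 genes with at least 10 bases were lower. Called lower were 0.31% of genes with a run under 8 bases, 0.557% with 10 and 3.48% with 11. Called higher were 0.218%, 0.557% and 1.74%, in the same order. Without the 8 genes, 0 genes with 10 or 11 bases were called lower. This follows from how the 8 were chosen, and the shares called lower at 10 and 11 bases are made up of the 8 alone. The median level was 4.82 CPM for genes with a run under 8 bases and 26.6 CPM for those with 10, so the bins also differ in abundance. All transcripts of a gene were searched, and their length and number were not adjusted for. Among genes with a mean of at least 10 CPM, 38.2% of the 453 with a run of at least 10 bases were lower, against 54.7% of all genes at that level. Within this set the median level was 51.7 CPM for genes with 10 bases, of which 38.1% were lower, and 47.2 CPM for those with a run under 8 bases, of which 63.1% were lower.

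Of the 27 nuclear genes with at least 12 bases, 1 was called, C3orf52 (12 bases), which was higher by 0.23 on the log2 scale (standard error 0.047, adjusted p = 0.00568, edgeR). The 5 genes with the longest runs, taken by abundance where runs were equal, did not pass the test. FMN2 (16 bases) had a log2 difference of 0.00 (standard error 0.070, adjusted p = 0.99, edgeR), GPLD1 (14 bases) -0.21 (standard error 0.087, adjusted p = 0.284), DDX1 (13 bases) -0.02 (standard error 0.035, adjusted p = 0.842) and GRAMD1A (13 bases) -0.02 (standard error 0.041, adjusted p = 0.883). NCL, the gene of nucleolin and the most abundant of those with 12 bases, had 0.00 (standard error 0.034, adjusted p = 0.983). The smallest difference of the 8 genes, in SPTBN1 at -0.15, belongs to a run of 11, and the genes with at least 10 bases that came closest to the threshold without passing it were TMEM177 (11 bases, -0.19, standard error 0.051), NDUFS7 (10 bases, -0.19, standard error 0.056) and SUGP1 (10 bases, -0.14, standard error 0.044).

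Counted the other way, 12.1% of the 58 nuclear genes called lower hold a run of at least 10 bases, all of them among the 8. The share was 6.32% of the 95 nuclear genes called higher and 3.37% of the 20229 nuclear genes tested. A run of at least 9 bases was present in 27.6% of the genes called lower and 32.6% of those called higher. That the called-lower genes with at least 10 bases are all among the 8 follows from how the 8 were chosen. The 12.1% rests on the same calls from which they were chosen, and it was not tested.

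The position of the run was described in the same way. For 463 protein-coding genes with a run of at least 10 bases, its place in a coding transcript was known. Of the 463, 7 were called lower, where the share over all genes tested was 0.296%. All 7 are in the set, since it took in every nuclear gene called lower with such a run. Nothing is therefore read from where these 7 fall below. Whether the distance from an exon junction bears on the level was not tested. The run was within 10 bases of an exon junction in 44 genes, with a median log2 difference of 0.02, and 43.2% of them were lower. RDH10 and ASAP1 were the 2 called lower. At 11 to 30 bases there were 42 genes, with a median of -0.01 and 59.5% lower, and PHYH and JMJD1C were the 2 called lower. At 31 to 100 bases there were 79 genes, of which 40.5% were lower and 1 called lower, SPTBN1. Beyond 100 bases there were 298 genes, of which 36.2% were lower and 2 called lower, KIAA1522 and SMPDL3B. In coding sequence 44.9% of 196 genes were lower and in the 3′ untranslated region 35% of 243.

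The treatments with other morpholinos had few calls to set beside these. Against the mean of the remaining treatments, genes with a run of at least 10 bases to the treatment's own morpholino were lower in 43.4% for ATP8, 46.7% for COX2, 47.5% for COX1, 51.1% for COX3, 62% for CYTB and 64.1% for ND1. For genes with a run under 8 bases the shares lay between 45% (ND1) and 53.5% (ND5). ND5, at 41.1%, had the lowest share of these 7 treatments for the longer runs.

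For the 8 genes except KIAA1522, 7 lists of other genes of their pathways or families were examined in the same contrast. Of 177 genes tested, 1 was lower and 3 were higher after ND5 silencing (2.26%, against 0.774% of all genes in either direction); the lists' medians lay between -0.03 and 0.06 on the log2 scale, against 0.00 over all genes. None of the 4 was past the threshold against the control. The number called ranged from 0 (among others, without ND5 replicate 1 or 4) to 7 (DESeq2).

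Around PHYH, 0 of 30 genes of phytanic acid alpha-oxidation and peroxisomal import were lower and 1 was higher, ACSL3, an acyl-CoA synthetase, with 132.6 ± 7.95 CPM in ND5 libraries (SD, n = 4) and 128.7 ± 5.62 CPM in control libraries (SD, n = 4). Its log2 difference from the other treatments was 0.16 (standard error 0.037, adjusted p = 0.0235, edgeR). Around RDH10, 0 of 23 genes of retinoid metabolism passed; the largest differences were those of DHRS9 (-0.54, standard error 0.37, adjusted p = 0.585) and the nuclear receptor RXRG (-0.54, standard error 0.24, adjusted p = 0.327), both at about 1 CPM or less. Among 24 other JmjC proteins, RIOX1, a ribosomal oxygenase, was lower, with 41.8 ± 3.13 CPM in ND5 libraries (SD, n = 4), 46.6 ± 3.499 CPM in control libraries (SD, n = 4) and -0.19 against the other treatments (standard error 0.048, adjusted p = 0.0406, edgeR).

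Around SPTBN1, 2 of 24 genes of the spectrin skeleton were higher and 0 lower. ANK2, an ankyrin, had a log2 difference of 0.17 (standard error 0.042, adjusted p = 0.0354, edgeR), and TMOD1, which caps actin filaments, 0.30 (standard error 0.065, adjusted p = 0.0104). None of 27 ARF GTPase-activating proteins, 29 genes of sphingomyelin turnover and 20 genes of TGF-beta signalling passed in edgeR (0 in each list). ADAP1 (-0.24, standard error 0.18, adjusted p = 0.628), SPTLC3 (-0.26, standard error 0.45, adjusted p = 0.877) and CTHRC1 (-0.42, standard error 0.31, adjusted p = 0.62) had the largest differences in these 3 lists. Their levels were low, with means of 1.47, 0.26 and 0.34 CPM in the ND5 libraries, in the same order.

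The levels of the 8 genes over the 46 libraries, centred within batches, were compared pair by pair. Pearson's r over the 28 pairs had a median of 0.521 (0.322 to 0.885) with the ND5 libraries, which share the difference that chose the genes, and of 0.0286 (-0.429 to 0.724) over the other 42 libraries. The pairs are described without a test, since all values come from the same libraries. JMJD1C and ASAP1 were the closest pair, with r of 0.885 over 46 and 0.724 over 42 libraries.

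Among protein-coding genes with a mean of at least 1 CPM, the 5 nearest to the mean profile of the 8 were SLC39A9 (r = 0.687 over 46 libraries), PRDX3 (0.643), ATPAF2 (0.636), GLA (0.613) and CPT2 (0.605). Over the 42 libraries without ND5 their r lay between -0.166 and 0.173. Taken singly, the nearest gene was one of the 8 for PHYH (GPR180, 0.815), GPR180 (JMJD1C, 0.871), RDH10 (JMJD1C, 0.795), JMJD1C and ASAP1. These r over 46 libraries include the ND5 difference that chose the genes. Over the 42 libraries r was -0.0468 for PHYH with GPR180, 0.517 for GPR180 with JMJD1C, 0.322 for RDH10 with JMJD1C and 0.724 for JMJD1C with ASAP1. The nearest was another gene for the 3 with the smallest differences: NPRL3 for KIAA1522 (0.772), SPTAN1 for SPTBN1 (0.69) and MPDU1 for SMPDL3B (0.726). For these 3 pairs r over the 42 libraries was 0.816, 0.664 and 0.723.

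Whether the ND5 chimera met these mRNAs in the cytosol or nucleus was not measured, and the part of the complementary runs in the lower levels was not tested.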

How the data were processed

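Per the labels and the paper, the libraries were made from poly(A) RNA and run on a NovaSeq X Plus, with single-end reads by the sample records and paired-end reads by the paper. The authors deposited unnormalized counts of 58735 genes, 11381 of them at 0 throughout; every column was matched to a sample. How reads were aligned, counted and assigned to strands is not given in the sources used here, so overlapping and antisense genes could share reads. The submitters' processing notes name R 4.3.0, DESeq2 1.40.2, limma 3.56.2 and GRCh38.p12. The same table holds a gene length (another deposited value, in bases), which was not used.

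The 8 genes, the gene lists and the alternatives were chosen with earlier results of these data known. Counts of the 46 libraries were scaled by TMM and fitted by edgeR 4.0.16 (in R 4.3.3), with condition and batch as terms and the quasi-likelihood F test, over 20272 genes that passed filterByExpr (minimum count 10); p-values were adjusted over all genes by the Benjamini-Hochberg method. DESeq2 1.42.0 served as an alternative. CPM and log2 differences were computed from the deposited counts. The fit was tested on simulated data. Batches 1 and 2 (replicates 1 and 2, 3 and 4) come from the paper. Libraries of the same replicate number deviated together (correlation 0.514 on average, lowest 0.168 of 242 pairs), as did those of the same batch with different numbers (0.445), so a replicate block was also fitted. All 66 pairs of replicates of a condition differed by more than sampling noise.

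Gene identifiers matched GENCODE 29. The longest run complementary to a morpholino was sought over all GENCODE 29 transcripts of a gene, on the sense strand, without mismatch; 9 tested genes had no transcript. The letters of 7 morpholinos equalled the reference at their stated positions and were used; those for ATP6, ND2, ND3 and ND4L were not used here. Introns were not searched.

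Genes named were the 8 genes and MT-ND5, list genes called in the contrast and up to 2 with the largest difference per list, the 5 genes nearest in profile and the nearest of each gene, and the 5 with the longest runs. TMEM177, NDUFS7, SUGP1 and C3orf52, and the label-check genes NEFM, COL1A1 and ACTN2, were named after their values were seen.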

Additional observations from a re-analysis of the deposited data

Results flagged for a closer look

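In 80 sets of 4 libraries (the 8 genes in the 10 conditions with 4 libraries), 5 held a library far from the other 3 by Dixon's test (critical value 0.829), which chance gives in about 1 in 20 sets. PHYH was at 22.3 CPM in ATP6 replicate 2, against 24.5 to 24.9 in the other 3. SMPDL3B was at 22.4 CPM in the same library, against 20.3 to 20.5. ASAP1 was at 69.7 CPM in COX1 replicate 4, against 83 to 85, and at 58.8 CPM in ND5 replicate 2, against 64 to 64.5. SMPDL3B was at 21.1 CPM in control replicate 1, against 19.1 to 19.3.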

How the results depend on the processing

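Over 22 alternatives the 8 genes were lower after ND5 silencing, a direction that their choice sets, with 342 of 352 values (ND5 minus the other treatments and minus the control) within 1 SD of the ND5 libraries and the other 10 beyond it, all from fits of 1 batch alone. From the other treatments, the log2 difference ranged from -1.23 to -0.744 for PHYH, -0.873 to -0.421 for GPR180, -0.681 to -0.382 for JMJD1C, -0.496 to -0.368 for RDH10, -0.389 to -0.315 for ASAP1, -0.367 to -0.218 for SMPDL3B, -0.315 to -0.142 for KIAA1522 and -0.235 to -0.0649 for SPTBN1. Of the 22 alternatives, 11 called SPTBN1 lower than after the other treatments, 16 KIAA1522, 18 SMPDL3B, 21 JMJD1C and all 22 the remaining genes. These calls are in the contrast that chose the genes, and the alternatives reuse the same libraries. They show only how far a call depends on the setting and are no further test of the 8 genes. No setting called any of the 8 among the other 10 treatments or in one of these against the control.

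Counts over all genes moved with the setting, and the cause was not tested. Without a batch term, 12 genes were lower and 25 higher than after the other treatments, 7 lower and 4 higher than in the control, 18 differed among the other 10 treatments and 0 list genes were called. With the replicate number as a block in place of the batch, which the pairing allows, the first 2 counts were 104 and 162, 29 genes were higher than in the control and 97 differed among the 10. Without the low-count filter, which tests more genes, the counts were 124, 150, 36, 82 and 561, in the order lower and higher than the other treatments, lower and higher than the control, and different among the 10. DESeq2 gave 156, 168, 44, 44 and 164, and 7 list genes. Batch 1 alone, with fewer libraries, gave 19, 15, 9, 4 and 0 list genes, and batch 2 alone 12, 13, 4, 2, 20 among the 10 and 0 list genes. A minimum count of 50 gave 23 genes higher than the control. With libraries left out, the counts ranged from 14 to 61 (lower) and 28 to 112 (higher) against the other treatments, from 11 to 24 and 6 to 18 against the control, from 20 to 60 among the 10 treatments and from 0 to 4 for list genes. With the block, as without it, 0 of the 8 genes were called among the other 10 treatments.

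With 1 mismatch allowed, 45.6% of the genes with a run of at least 10 bases were lower, against 41.1% without; that count then takes in 51% of genes. The alternative with introns was not run, since no genome was used here. At most 2 libraries per condition and batch limit what the within-batch values can show.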
